A study of Mus musculus with 11 samples.

Results

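The mouse miR-132 and miR-212 hairpins form a cluster that gives 4 mature microRNAs (miRNAs), mmu-miR-132-3p, mmu-miR-132-5p, mmu-miR-212-5p and mmu-miR-212-3p, written below without the species prefix. They were chosen by name, as every arm with either stem, and are 4 of the 1281 mature miRNA names counted in liver. The cluster itself was selected on measured values, its read counts in these same libraries. Its levels and its genotype differences are therefore a description.

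Small RNA was sequenced from untreated liver of telomerase-knockout mice of the C57/B6 background. The 11 libraries comprise 6 from G4 p53-/- mice, which have short telomeres and lack the tumour suppressor p53, and 5 from G4 p53+/+ mice, which have short telomeres and intact p53. Both genotypes carry the telomerase knockout, so no group here has intact telomeres. The labels do not tie each library to its own animal, and p-values then measure only the spread between these samples, which may be technical.

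A miRNA guides a silencing complex to messenger RNAs that match its seed, the stretch from base 2 to base 8. These hairpins are best known from neurons, where the transcription factor CREB switches on their shared primary transcript after activity or growth factor signals. miR-132-3p has been reported to repress Sirt1, the deacetylase of the sirtuin class named in the study's title.

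The 4 mature sequences, from RefSeq on GRCm38.p6, are shown because the seed sets which arms can share targets. Capitals mark the seed, and all 4 names matched the RefSeq table.
miR-132-3p: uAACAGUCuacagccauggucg
miR-212-3p: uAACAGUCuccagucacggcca
miR-132-5p: aACCGUGGcuuucgauuguuac
miR-212-5p: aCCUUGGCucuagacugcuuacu
The 3p arms share the seed AACAGUC with each other and with no other of the 1679 mature mouse names in that table. They are identical at 17 of 22 positions. Counted from the 5′ end of miR-132-3p, the substitutions towards miR-212-3p are A10C, C14U, U17C, U20C and G22A, all outside the seed. The seeds of the 5p arms, ACCGUGG and CCUUGGC, occur in no other name of the table.

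Both hairpins lie on the plus strand of chromosome 11 of GRCm38, at chr11:75173388-75173478 for Mir212 and chr11:75173682-75173747 for Mir132. They are separated by 203 bases, and the whole cluster spans 360 bases. GENCODE M21 places both in an intron of the 3-exon noncoding host transcript 1700016P03Rik, which runs from 75172560 to 75177633. Hic1, a gene for a transcriptional repressor and itself a known p53 target, lies 3869 bases away on the minus strand. The hairpins are shown with their mature arms in capitals, because the results turn on which arm gave the reads.
Mir212: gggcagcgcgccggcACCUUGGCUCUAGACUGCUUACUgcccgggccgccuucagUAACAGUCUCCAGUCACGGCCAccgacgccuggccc
Mir132: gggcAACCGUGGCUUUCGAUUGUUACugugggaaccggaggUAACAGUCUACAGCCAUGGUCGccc
Each arm has 1 hairpin in the count table, so no read of the cluster is listed under several hairpins.

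Library totals ran from 1905609 to 6682492 counts, with each miRNA counted once. Levels are given as normalised CPM, which are counts brought to a common library total with TMM scaling, a correction for differences in composition between libraries. p53-/- library 11 and p53+/+ libraries 1 and 2 were the shallowest. A limit of 3 counts, for miRNAs without a read, stood for between 0.449 and 1.57 CPM before TMM scaling. The liver label fitted the hepatocyte miRNA miR-122-5p, at 435040 to 769332 normalised CPM in p53-/- livers and 450526 to 625607 in p53+/+ livers. miR-34a-5p, a direct p53 target, averaged 7.13 normalised CPM (SD 2.95, n = 6) in p53-/- livers, against 71.9 (SD 32.4, n = 5) in p53+/+ livers, a direction that fits the genotype labels. The Trp53 transcript itself is not part of a miRNA table.

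The cluster was detected in every library but was a minor part of the liver repertoire. miR-132-3p was its most abundant arm, with 1630 reads over the 11 libraries, and ranked 180 by mean CPM among the 811 miRNAs with any read. miR-212-5p ranked 254 with 528 reads, and miR-132-5p ranked 264 with 483 reads. miR-212-3p, which shares its seed with miR-132-3p, ranked 321 with 231 reads. A read covers a whole arm of 22 or 23 bases, so arms can be compared by their reads, apart from any arm-specific efficiency of library preparation, which was not tested.

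The order of the arms was largely the same in each library. miR-132-3p had more reads than every other arm in 11 of 11 libraries, with a median ratio of 7.15 to miR-212-3p that ran from 4.40 to 8.97. Of the shared seed AACAGUC, the larger part therefore came from Mir132 in every library. miR-132-5p and miR-212-5p did not separate, since miR-132-5p had more reads in 5 of 11 libraries and the median ratio was 0.961. miR-212-3p had fewer reads than miR-212-5p in 11 of 11 libraries and fewer than miR-132-5p in 9 of 11.

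The 2 hairpins favoured opposite arms. The 3p arm gave 78.1 ± 3.84% of the miR-132 reads (SD, n = 11), between 72.4% and 85.0% in single libraries. The 3p arm gave 32.3 ± 8.75% of the miR-212 reads (SD, n = 11), between 21.9% and 47.4%. miR-132 was thus read mostly as the seed-sharing 3p arm, and miR-212 mostly as the 5p arm, with median arm ratios of 3.49 (3p over 5p) and 2.33 (5p over 3p). The 3p share was higher for miR-132 than for miR-212 in 11 of 11 libraries, by 45.8 ± 9.06 percentage points (two-sided exact sign-flip permutation test over libraries, p = 0.000977, the smallest that 2048 sign patterns allow with this number of libraries). This comparison was chosen after the counts were seen.

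**Figure D1:**
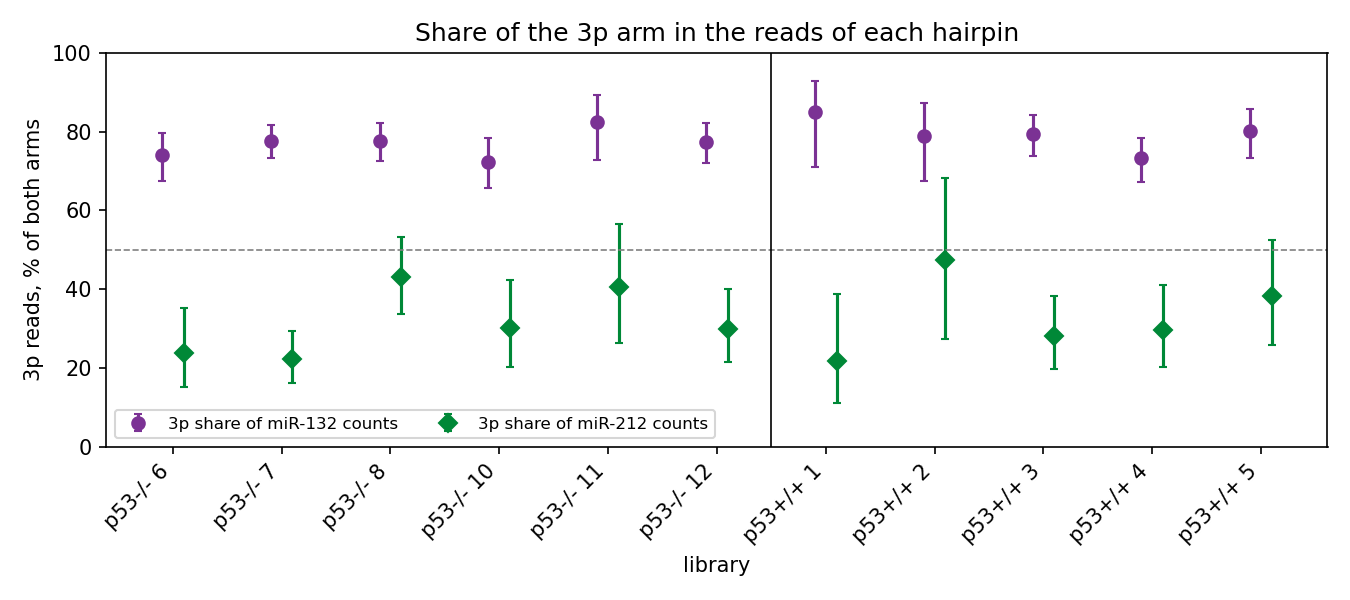
Share of the 3p arm in the reads of both arms of a hairpin (%, vertical axis) in each library (horizontal axis, p53-/- left of the line and p53+/+ right of it), with 95% Wilson intervals that cover counting error only. The miR-132 points lie between 72.4% and 85.0% and the miR-212 points between 21.9% and 47.4%, on opposite sides of the dashed line at 50% in all 11 libraries.

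Single-library shares of miR-212 were imprecise. In p53+/+ library 2 they rested on 9 of 19 reads, or 47.4% with a 95% Wilson interval of 27.3 to 68.3%. In p53-/- library 7, which had the most miR-212 reads, they rested on 33 of 149 reads, or 22.1% (16.2 to 29.5%). p53-/- library 8 had 41 of 95 reads from the 3p arm, or 43.2% (33.7 to 53.2%), an interval that does not meet that of library 7. Intervals and limits cover counting error only, and they make no allowance for several reads of the same molecule.

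Arm use did not differ between genotypes beyond the spread between libraries. The 3p share of miR-132 averaged 77.0% (SD 3.49, n = 6) in p53-/- livers, against 79.4% (SD 4.19, n = 5) in p53+/+ livers, a difference of -2.41 points (two-sided exact permutation p = 0.333, 0.874 adjusted over 3 shares). The 3p share of miR-212 averaged 31.6% (SD 8.57, n = 6) in p53-/- livers, against 29.5% (SD 6.77, n = 4) in p53+/+ livers, a difference of 2.19 points (exact permutation p = 0.657, adjusted 0.874). p53+/+ library 2 was left out of that test, since it had fewer than the required 20 reads of miR-212. Both arms of miR-132 made up 72.9% (SD 2.53, n = 6) of the cluster's reads in p53-/- livers, against 71.8% (SD 9.32, n = 5) in p53+/+ livers (exact permutation p = 0.874, adjusted 0.874). The sign of that last difference and of the miR-212 difference turned without p53+/+ library 1, at -2.97 and -0.341 points, and that of miR-212 also turned without p53-/- library 8, at -0.115 points.

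The main comparison of the study asks which miRNAs depend on p53. miR-132-3p, the arm with the most reads, stood at 24.1, 29.5 and 44.2 normalised CPM as lowest, median and highest of the 6 p53-/- libraries. In p53+/+ libraries 1 to 5 it stood at 16.2, 22.1, 31.2, 29.4 and 30.9. The genotypes overlapped, with 3 of 6 p53-/- libraries above every p53+/+ library and p53+/+ libraries 1 and 2 below every p53-/- library. p53-/- libraries averaged 32.4 (SD 8.76, n = 6), against 26.0 (SD 6.59, n = 5) for p53+/+ libraries. By edgeR's quasi-likelihood test the log2 fold change was 0.31, with an SE of 0.24, a 95% interval from -0.20 to 0.82 and an adjusted p of 0.543. In bulk tissue, fewer cells that make a miRNA and less of it per cell cannot be told apart.

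miR-132-5p, the other arm of the same hairpin, had the largest fitted difference of the 4. Its lowest, median and highest levels were 5.11, 10.4 and 12.7 normalised CPM in p53-/- libraries. In p53+/+ libraries 1 to 5 they were 2.86, 5.87, 8.04, 10.8 and 7.61. The ranges overlapped, and 5 of 6 p53-/- libraries were above the p53+/+ median. p53-/- libraries averaged 9.74 (SD 2.88, n = 6), against 7.03 (SD 2.92, n = 5) for p53+/+ libraries. edgeR put the log2 fold change at 0.44, with an SE of 0.32, a 95% interval from -0.24 to 1.12 and an adjusted p of 0.529.

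miR-212-5p, the major arm of miR-212, stood at 8.03, 9.38 and 17.3 normalised CPM as lowest, median and highest of the p53-/- libraries. In p53+/+ libraries 1 to 5 it stood at 11.9, 4.51, 10.7, 8.41 and 6.90. Only p53-/- library 7 was above every p53+/+ library. Unlike both miR-132 arms, miR-212-5p had its highest p53+/+ level in library 1. p53-/- libraries averaged 10.7 (SD 3.53, n = 6), against 8.49 (SD 2.96, n = 5) for p53+/+ libraries. Its log2 fold change by edgeR was 0.33, with an SE of 0.29, a 95% interval from -0.29 to 0.95 and an adjusted p of 0.583.

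miR-212-3p, the minor arm with the shared seed, stood at 3.56, 4.35 and 7.58 normalised CPM as lowest, median and highest of the p53-/- libraries. In p53+/+ libraries 1 to 5 it stood at 3.34, 4.06, 4.19, 3.53 and 4.28. The p53+/+ levels lay close together, and p53-/- libraries 7, 8 and 11 were above all of them. p53-/- libraries averaged 4.83 (SD 1.55, n = 6), against 3.88 (SD 0.419, n = 5) for p53+/+ libraries. For this arm edgeR gave a log2 fold change of 0.30, with an SE of 0.27, a 95% interval from -0.27 to 0.88 and an adjusted p of 0.589. These levels came from 15 to 41 reads per p53-/- library and 7 to 25 reads per p53+/+ library.

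**Figure D2:**
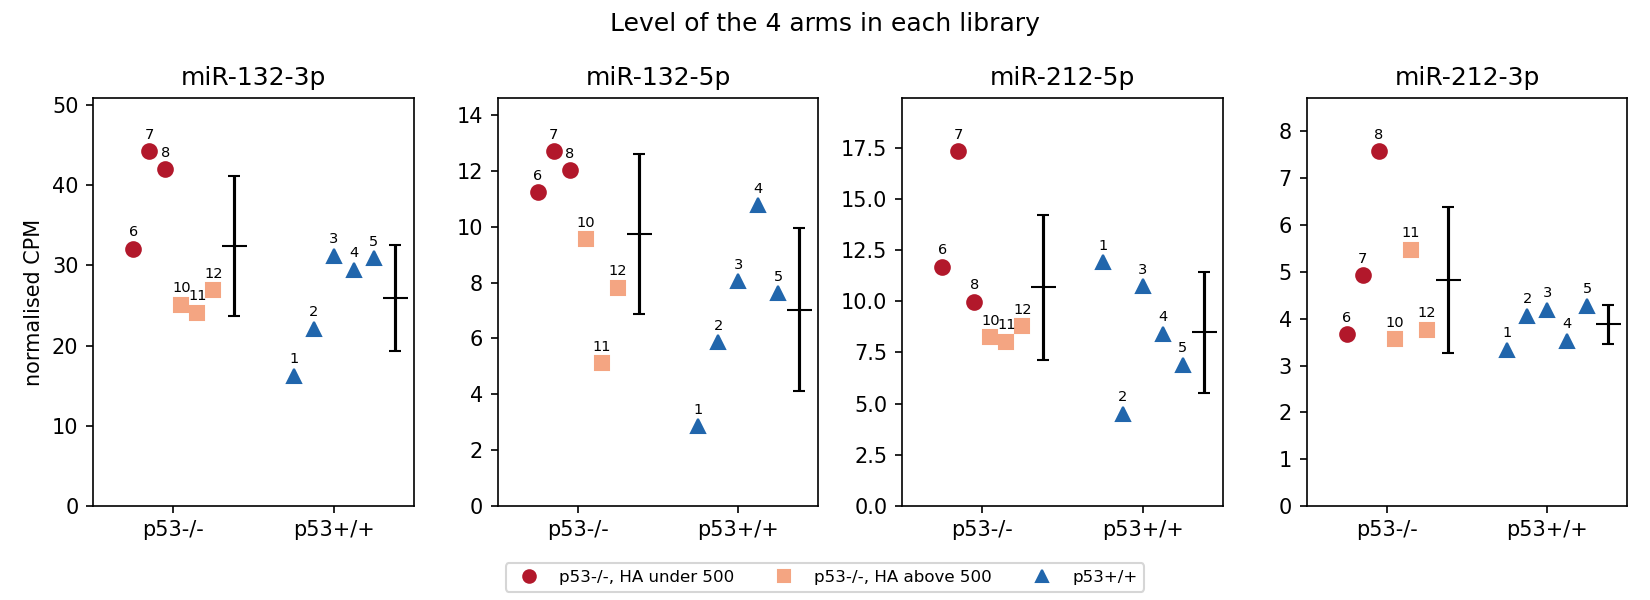
Normalised CPM (vertical axis, from 0) of each arm in the 6 p53-/- and 5 p53+/+ libraries, numbered by replicate, with the mean and SD as black bars. Circles are p53-/- libraries of HA numbers under 500 and squares those above 500. The genotypes overlap for every arm, and the circles are the 3 highest p53-/- values for miR-132-3p, miR-132-5p and miR-212-5p.

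All 4 arms passed the filter on low counts, and 0 of 4 passed the test. Among the 388 miRNAs tested, 1 passed, or 0.258%, and it was miR-34a-5p. The genotypes' ranges overlapped for all 4 arms, and 2.32% of all miRNAs tested had ranges without overlap. At an unadjusted p under 0.05 there were 0 of the 4 arms in edgeR, against 17.3% of all miRNAs tested, and DESeq2 and limma called 0 of the 4. The 4 fitted log2 fold changes were all above 0, with a median of 0.32, where 49% of the miRNAs tested were above 0 and their median was -0.01. The arms share a transcript and a hairpin pairwise, so they are not 4 separate observations. The 95% intervals ran up to 0.82 and 1.12 for the miR-132 arms, so differences of that size were not resolved at this depth and sample number.

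**Figure D3:**
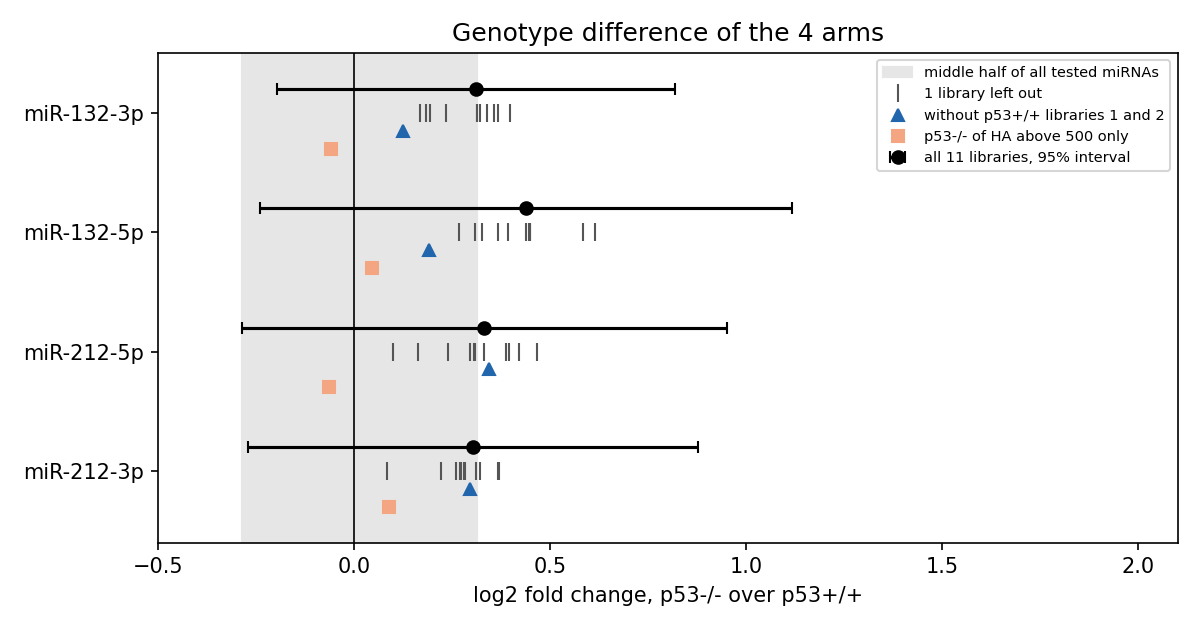
Log2 fold change of p53-/- over p53+/+ (horizontal axis) for each arm. Black points with 95% intervals are from all 11 libraries, ticks leave out 1 library each, and the grey band runs between the quartiles of the 388 miRNAs tested. All 4 intervals include 0, and with only the p53-/- libraries of HA numbers above 500 the points lie between -0.06 and 0.09.

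For miR-132-3p, miR-132-5p and miR-212-5p the highest p53-/- levels were those of libraries 6, 7 and 8, while miR-212-3p was highest in libraries 8 and 11. The labels give each library an HA number, whose meaning is not stated. It is under 500 for these 3 libraries and above 500 for p53-/- libraries 10, 11 and 12 and for all p53+/+ libraries. No p53+/+ library has a number under 500, so within the lower numbers there is no genotype comparison.

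For miR-132-3p the p53-/- libraries of HA numbers under 500 were at 32.1, 44.2 and 42.0 normalised CPM, and those above 500 were at 25.1, 24.1 and 26.9. For miR-132-5p the values were 11.2, 12.7 and 12.0 under 500, and 9.55, 5.11 and 7.81 above 500. For miR-212-5p they were 11.7, 17.3 and 9.98 under 500, and 8.24, 8.03 and 8.79 above 500. The ranges of these 3 arms did not overlap, with means 1.55-fold, 1.60-fold and 1.56-fold higher in the libraries under 500. The 3 arms share a transcript and varied together within the p53-/- libraries (r from 0.70 to 0.81), so they are not 3 separate observations. miR-212-3p overlapped, at 3.67, 4.93 and 7.58 under 500, and 3.56, 5.48 and 3.77 above 500. Among the 388 miRNAs tested, 6.96% lay wholly higher in the libraries under 500 and 10.6% lay apart in either direction.

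Summed over the 4 arms, the cluster was at 69.8 ± 10.4 normalised CPM (SD, n = 3) in p53-/- libraries of HA numbers under 500, 45.5 ± 2.43 (SD, n = 3) in those above 500 and 45.4 ± 9.23 (SD, n = 5) in p53+/+ libraries. With the p53-/- libraries above 500 alone, the log2 fold changes over p53+/+ livers were -0.06 for miR-132-3p, 0.05 for miR-132-5p, -0.06 for miR-212-5p and 0.09 for miR-212-3p, with adjusted p-values from 0.965 to 0.988 in edgeR. For miR-132-3p, miR-132-5p and miR-212-5p the 3 libraries left out held the highest p53-/- levels, so lower values followed from leaving them out. The sign of the fitted value turned for 2 arms, and no arm passed with or without these libraries. Library 7 alone moved miR-132-3p and miR-212-5p by over 1.5 times, to 0.17 and 0.10 without it, and library 8 moved miR-132-3p to 0.18 and miR-212-3p to 0.08. On the p53+/+ side, leaving out library 1 gave 0.19 for miR-132-3p and 0.27 for miR-132-5p, and leaving out library 2 gave 0.16 for miR-212-5p. Without both libraries 1 and 2, the shallowest p53+/+ libraries, miR-132-3p was at 0.12 and miR-132-5p at 0.19.

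Cell type markers and depth were compared over the same HA numbers. The summed level of 6 leukocyte miRNAs was 264 to 346 normalised CPM in p53-/- libraries under 500, 227 to 276 in those above 500 and 186 to 305 in p53+/+ libraries. The summed level of 8 neuronal miRNAs was 227 to 722 under 500, 170 to 216 above 500 and 193 to 248 in p53+/+ libraries. The 722 was p53-/- library 6 alone, while libraries 7 and 8, at 227 and 238, lay within the p53+/+ range. The most abundant miRNA of this sum was miR-128-3p, with means of 266 in p53-/- and 184 in p53+/+ livers. Of the defining neuronal markers, miR-124-3p was at 0 in all 11 libraries, and miR-9-5p was at most 4.75 normalised CPM. Hepatocyte miRNAs summed to 629882 to 815300 under 500 and 472345 to 735774 above 500, and red cell miRNAs to 731 to 1336 under 500 and 591 to 1060 above 500. Ranges of the endothelial sum (6291 to 10398 under 500, 5771 to 10475 above 500) and of the stellate and mesenchymal sum (5671 to 6722 under 500, 5734 to 6572 above 500) nearly coincided. Pancreas miRNAs summed to 14.3 to 27.5 under 500 and 6.74 to 20.4 above 500. Total counts ran from 5243933 to 6664274 under 500 and from 2202415 to 6682492 above 500. The part of these in the levels of the cluster was not tested.

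The spread between libraries was wider than counting error for the abundant arms. The SD of miR-132-3p was 3.37 times what read counting alone gives in p53-/- livers and 2.36 times in p53+/+ livers. For miR-132-5p both were 2.01 to 2.02 times, and for miR-212-5p they were 2.36 and 1.86 times. For miR-212-3p the factor was 1.55 in p53-/- livers but 0.389 in p53+/+ livers, so its narrow p53+/+ range was narrower than counting error and does not measure a biological spread.

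The arms of Mir132 varied together between libraries. Over the 11 libraries, log2 normalised CPM of miR-132-3p and miR-132-5p gave Pearson's r = 0.89 (permutation p = 0.00019, 0.00114 adjusted over 6 pairs of arms) and Spearman's rho = 0.87 (permutation p = 0.00079, adjusted 0.00474). Without the 2 libraries farthest from the median of miR-132-3p, p53+/+ library 1 and p53-/- library 7, r was 0.75, and within the 6 p53-/- libraries it was 0.81. Among the 387 other miRNAs tested, miR-132-5p was the one most like miR-132-3p.

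The relations that involve miR-212 did not pass, and the differences between these correlations were not tested. miR-132-3p and miR-212-5p gave r = 0.41 (permutation p = 0.202, adjusted 0.404) and rho = 0.46 (permutation p = 0.155, adjusted 0.260). Without p53+/+ library 1 and p53-/- library 7, r was 0.65, and within the p53-/- libraries it was 0.81. Without the shallow p53+/+ libraries 1 and 2, r was 0.72 for miR-132-3p with miR-212-5p and 0.74 for the miR-132 arms, a narrower gap. Library 1 was low for miR-132-3p but high for miR-212-5p, at 16.2 and 11.9 normalised CPM. Library 2 was low for both, at 22.1 and 4.51. miR-132-3p and miR-212-3p, the arms with 1 seed, gave r = 0.58 (permutation p = 0.0663, adjusted 0.199) and rho = 0.48 (permutation p = 0.138, adjusted 0.260). For this pair r was 0.52 without p53+/+ library 1 and p53-/- library 7, and 0.53 without p53+/+ libraries 1 and 2. The arms of the Mir212 hairpin gave r = 0.10 (permutation p = 0.754, adjusted 0.754) and rho = -0.13 (permutation p = 0.711, adjusted 0.711), and r = 0.08 within the p53-/- libraries. Levels of 1 library share its depth and scaling factor.

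**Figure D4:**
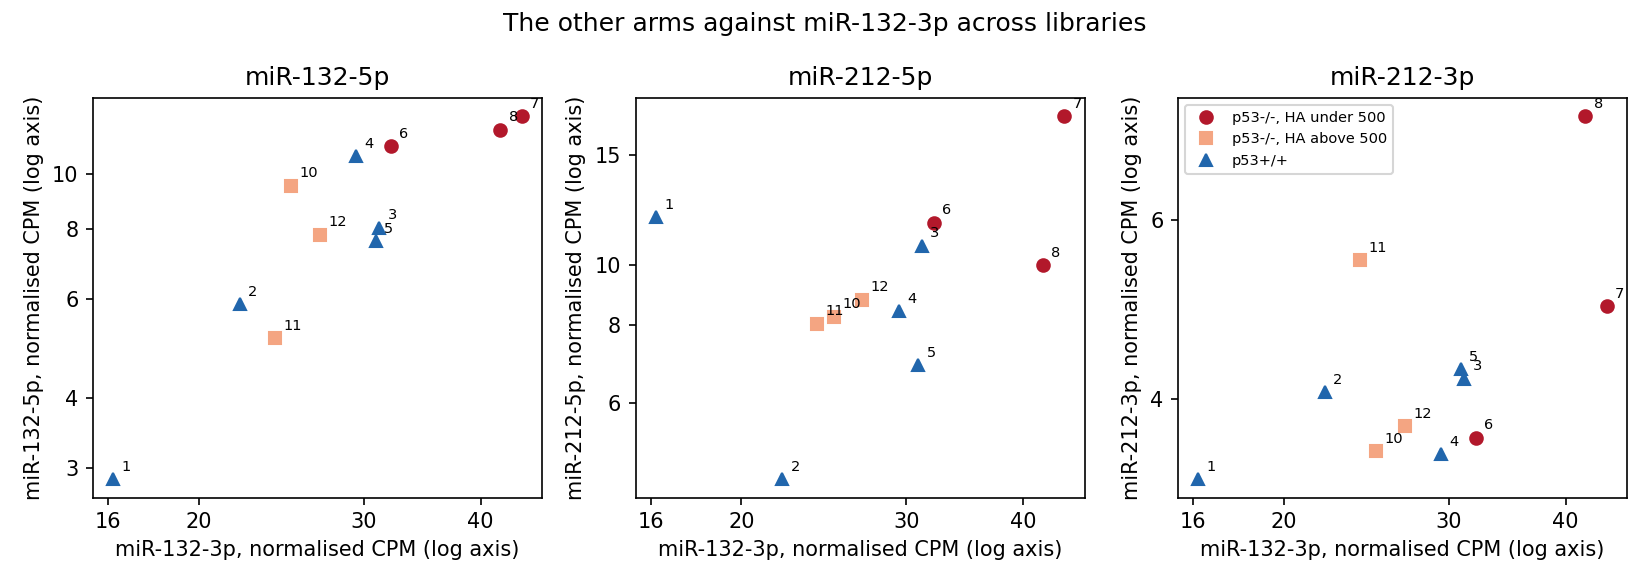
Normalised CPM of miR-132-5p, miR-212-5p and miR-212-3p (vertical axes, log) against miR-132-3p (horizontal axes, log) in the 11 libraries, numbered by replicate. The miR-132 arms lie along a line (r = 0.89), while p53+/+ library 1, lowest for both miR-132 arms, has one of the higher miR-212-5p levels at 11.9.

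Among the 250 other miRNAs tested with a mean of at least 10 normalised CPM, the 5 whose log2 levels over the 11 libraries were most like those of miR-132-3p were miR-25-3p (r = 0.82), miR-1843b-3p (0.77), miR-704 (0.75), miR-148b-3p (0.75) and miR-3068-3p (0.74). These are the highest of many values and are given as a description. Without p53+/+ library 1 they were 0.71, 0.57, 0.51, 0.70 and 0.67. miR-25-3p, of the cluster in an intron of Mcm7, was at 1314 normalised CPM in p53-/- livers and 1125 in p53+/+ livers on average (log2 fold change 0.22, adjusted p = 0.574 in edgeR). None of the 5 passed the test between genotypes.

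The nearest other miRNA with reads on chromosome 11, Mir22, lies 290 kb downstream of Mir132. miR-22-3p was at 8445 normalised CPM (SD 2945, n = 6) in p53-/- livers, against 15557 (SD 11619, n = 5) in p53+/+ livers (log2 fold change -0.88, SE 0.42, adjusted p = 0.293 in edgeR). The p53+/+ mean of miR-22-3p rests on libraries 1 and 2, at 20586 and 33760, where libraries 3 to 5 were at 7517, 9252 and 6669. Its log2 fold change was -0.44 without library 2 and turned to 0.14 without both (adjusted p = 0.581 and 0.851 in edgeR), refits chosen after seeing the data. miR-22-5p was at 77.7 (SD 23.6, n = 6) in p53-/- livers, against 78.4 (SD 13.9, n = 5) in p53+/+ livers, or -0.01 (SE 0.23, adjusted p = 0.988 in edgeR). Neither passed, and the difference between Mir22 and the cluster was not tested.

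The miR-132 and miR-212 3p arms belong to a list of miRNAs reported to target Sirt1. Of its 10 other tested arms, 1 fell without p53, miR-34a-5p (-3.33, adjusted p = 7.07e-05 in edgeR), and 0 rose. Over all 388 miRNAs tested, 0.258% passed, and the 1 that did was this same miR-34a-5p. Fitted values were below 0 for 8 of these 10 and above 0 for 2, where 49% of all miRNAs tested were above 0. The median of these 10 was -0.45, against -0.01 over all miRNAs tested and 0.31 and 0.30 for the 3p arms of the cluster. The smallest p-values after miR-34a-5p were those of miR-217-5p (-4.47), miR-200a-3p (-0.59) and miR-22-3p (-0.88), none of which passed. miR-217-5p is also a pancreas marker, and the value of miR-22-3p turned without p53+/+ libraries 1 and 2. miR-135a-5p was at 0 in all libraries.

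miR-132 is also among the miRNAs that bacterial lipopolysaccharide (LPS) and NF-kappaB induce in macrophages. Of 6 tested arms of other such miRNAs, 0 passed in either direction, 2 fitted values were above 0 and 4 below, and the median was -0.06. Over all 388 miRNAs tested, 0.258% passed, 49% were above 0 and the median was -0.01. miR-146a-5p, a brake on NF-kappaB signalling, was at 768 normalised CPM in p53-/- livers and 1141 in p53+/+ livers (-0.57, adjusted p = 0.190 in edgeR). miR-155-5p, induced in activated macrophages, was at 16.2 in p53-/- livers and 14.1 in p53+/+ livers (0.20, adjusted p = 0.814 in edgeR).

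Lists of cell type markers gave 0 calls in each direction, and which cells make the cluster was not tested. Over all 388 miRNAs tested, 0 passed as higher and 0.258% as lower, and 49% had fitted values above 0. The neuronal list had 2 of 4 tested arms above 0 (median 0.04), with miR-128-3p at 0.53, miR-129-5p at 0.43, miR-137-3p at -0.34 and miR-9-5p at -0.65. The 2 endothelial arms were below 0 (median -0.27), and 7 of 8 stellate and mesenchymal arms were below 0 (median -0.13), with miR-214-3p, at 0.30, the exception. The leukocyte list had 5 of 6 above 0 (median 0.18), with miR-150-5p at 0.68 (adjusted p = 0.174 in edgeR). Its exception was miR-223-3p, at -0.23 (adjusted p = 0.702 in edgeR). Red cell arms divided 2 and 2 (median 0.08), hepatocyte arms had 4 of 6 below 0 (median -0.03), and the 2 tested pancreas arms were below 0 (median -3.35). The summed pancreas level was 6.74 to 27.5 normalised CPM in p53-/- libraries and 2.86 to 410 in p53+/+ libraries. In p53+/+ library 1, where both miR-132 arms were lowest, it was 2.86, and its part in the levels of the cluster was not tested.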

How the data were processed

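Raw counts for each mature miRNA on each of its hairpins were deposited, with GRCm38 as the build and limma among the tools per the submitters' processing notes, and a table in CPM, which are the deposited counts over each column's total. Aligner, counter and trimming were not given in the sources used here. Values of the library files and the series table were identical (0 differing values). Each mature miRNA was counted once, at its highest count over hairpins.

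The genotype comparison used the quasi-likelihood test of edgeR 4.0.16 under R 4.3.3 (TMM, filterByExpr, Benjamini-Hochberg over 388 miRNAs, threshold 0.05), tested on simulated data. SEs come from the fold change and F statistic. Library totals were 1905609 to 6682492 counts. Alternatives were DESeq2 1.42.0, limma 3.58.1 on the authors' CPM, other scalings and filters, and libraries left out. Shares were compared by exact permutation (scipy 1.17.1) and correlations with 100000 permutations. The miRNAs named are the 4 arms, miR-34a-5p, the 5 most like miR-132-3p, arms within 1 Mb or with a shared seed, and up to 4 arms per list by smallest p. Members and lists were chosen with earlier results of these data known.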

Additional observations from a re-analysis of the deposited data

Results flagged for a closer look

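In p53+/+ library 1 the miR-132 arms made up 55.6% of the cluster's reads (40 of 72 reads, 95% Wilson interval 44.1 to 66.5%), far from the other p53+/+ libraries, which lay between 72.4% and 77.5%. The p53-/- libraries lay between 68.4% and 75.5%. The library had the lowest level of both miR-132 arms and the highest p53+/+ level of miR-212-5p, from 34, 6 and 25 reads, and was among the shallowest. Of 16 groups of values examined in this way, 1 had such a library, and chance gives about 1 in 20.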

How the results depend on the processing

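In all 80 alternative values for the 4 arms, no arm passed the test (adjusted p from 0.327 to 0.988), and 78 stayed above 0. The exceptions came when libraries 6, 7 and 8, whose HA numbers are under 500, were left out, at -0.0603 for miR-132-3p and -0.0633 for miR-212-5p. These libraries held the highest p53-/- levels of both arms, so lower values followed from leaving them out. The cause of those levels was not tested. With a library left out, log2 fold changes ran from 0.17 to 0.40 for miR-132-3p, 0.27 to 0.61 for miR-132-5p, 0.08 to 0.37 for miR-212-3p and 0.10 to 0.47 for miR-212-5p. The number of miRNAs called was 1 under each alternative other than DESeq2, which called 7. Library scalings moved the median of all miRNAs by less than 0.1.

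The difference in the 3p share of miR-212 ran from -0.341 to 5.13 points with a library left out, that of miR-132 from -3.95 to -1.01 and the miR-132 share of the cluster from -2.97 to 2.52. Without p53+/+ libraries 1 and 2 the miR-212 and cluster shares turned to -0.341 and -2.75 points, and with pooled counts to -0.868 and -0.762. The gap between the 3p shares of the 2 hairpins stayed between 44.1 and 47.2 points. No paired analysis was possible because the labels do not pair p53-/- libraries with p53+/+ libraries. Depth limits miR-212-3p most, with 7 to 41 reads per library.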
